A study of Mus musculus with 6 samples.

Results

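Marker genes of Langerhans cells and of the dendritic cell subsets of skin were examined in lesional skin of mice with a psoriasis-like disease. The members were 10 genes, Cd207, Epcam, Xcr1, Clec9a, Batf3, Cd209a, Mgl2, Clec10a, Flt3 and Zbtb46, taken by symbol from a deposited table of 35434 genes, and all 10 were found in it. The mice had received regulatory T cells (Tregs, the T cells that restrain immune responses) by transfer. In the group labelled Ctrl-Treg these were control cells. In the group labelled Lenv-Treg they had been treated with lenvatinib, an inhibitor of receptor tyrosine kinases, per the series title. Each group had 3 RNA-seq libraries of whole skin. Every library came from a diseased mouse that had been given Tregs, so no library shows undiseased skin or disease without transferred cells. Strain, sex, age, the way the disease was induced, and whether each library was a separate mouse are not stated in the labels. The p-values therefore measure only how these samples vary, which may be technical variation. The keratin genes of the basal epidermis were high in all 6 libraries, with Krt5 between 781 and 1689 and Krt14 between 611 and 4571 FPKM (read fragments scaled to gene length and library depth).

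Langerhans cells are the antigen-presenting cells of the epidermis. They carry langerin, the endocytic lectin encoded by Cd207, and the adhesion molecule EpCAM, and they depend on IL-34 made by keratinocytes and on TGF-beta. Classical dendritic cells (cDCs) of the dermis arise from precursors that need the receptor FLT3, and they express the transcription factor ZBTB46. The cDC1 subset depends on the transcription factors BATF3 and IRF8, carries the chemokine receptor XCR1 and the dead-cell receptor CLEC9A, and cross-presents antigen to CD8+ T cells. The cDC2 subset depends on IRF4 or KLF4, and part of it in the dermis carries the lectin CD301b, encoded by Mgl2. Several of these genes are not restricted to dendritic cells: epithelial cells express Epcam, endothelial cells express Zbtb46, some macrophages express Clec10a, and a part of the cDC1 cells of mouse skin expresses Cd207.

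Depth was close to equal, at 38704536 to 40248462 assigned reads per library as recovered from the steps of the FPKM values. Genes that reached 0.5 FPKM in 3 or more of the 6 libraries were tested with limma on log2(FPKM + 1). Differences below subtract Ctrl-Treg from Lenv-Treg on that scale unless a fold of mean FPKM is named. Of 13945 genes tested, 41.7% passed an adjusted p of 0.05, 11% higher and 30.8% lower in Lenv-Treg, so that 26.3% of the calls were higher. Scaling by median ratios made that split 50%, and rescaling to TPM 10.6%. Over all tested genes the median difference was -0.17 as deposited, -0.0019 after median-ratio scaling and -0.44 as TPM. The recovered reads are given where values are low, and counting error alone is covered by them.

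The marker genes did not move as a block. Of the 10, 9 passed the filter; 5 fell, 1 rose and 3 did not pass the test, against 30.8% of all tested genes lower and 11% higher. The 5 include Xcr1, which passed the filter only through Ctrl-Treg and so had to differ; of the other 8 tested genes 4 fell. Those that fell were Cd207 and Epcam of Langerhans cells, Xcr1 and Batf3 of cDC1 and Mgl2 of dermal cDC2. Clec10a, the closest relative of Mgl2, was the gene that rose. Cd209a, Flt3 and Zbtb46 did not pass, and Clec9a was below the filter. Without regard to the test, 6 of the 10 were lower in each Lenv-Treg library than in any Ctrl-Treg library and 1 was higher, while 55.4% of tested genes did not overlap, 41% lower and 14.4% higher. The 6 include Xcr1, whose groups the filter kept apart, and Clec9a, which is outside the tested genes. The other 4 are those that fell among the 8 genes named above. The median difference of the 9 tested genes was -0.73, against -0.17 for all tested genes. The 9 include Xcr1, so this median rests in part on a gene that had to differ. Among the other 8 the middle lay between Batf3 (-0.73) and Flt3 (0.11), a span that holds the -0.17 of all tested genes. In whole skin, fewer cells of a type and less RNA per cell cannot be told apart.

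**Figure D1:**
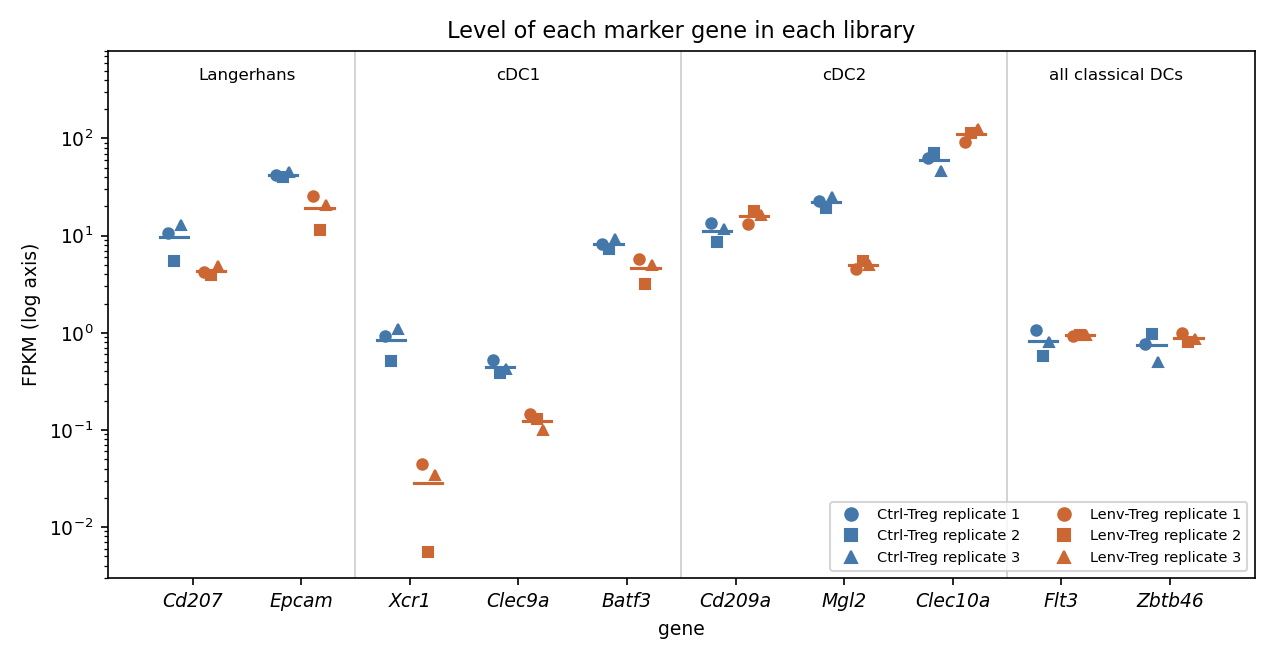
FPKM of each marker gene (log axis) in the 6 libraries, by the cell type it marks; symbols stand for libraries and bars for group means, n = 3. Xcr1 is the gene with the widest gap between groups, Mgl2 and Clec10a lie apart in opposite directions, and the groups of Cd209a, Flt3 and Zbtb46 overlap.

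Both Langerhans cell markers were lower in Lenv-Treg, each by slightly more than 2-fold. Cd207, which encodes langerin, was 10.7, 5.49 and 12.9 FPKM in the Ctrl-Treg libraries and 4.27, 3.95 and 4.82 FPKM in the Lenv-Treg libraries. The groups did not overlap, but Ctrl-Treg replicate 2 lay close to the Lenv-Treg range while the other Ctrl-Treg libraries were far above it. Mean FPKM was 9.70 ± 3.81 (SD, n = 3) and 4.34 ± 0.441 (n = 3), a fold of 2.23, and the difference of -0.93 (SE 0.26) passed in limma with an adjusted p of 0.025. The call was lost in 5 of 6 fits that left out 1 library, with differences from -0.71 to -0.997 and adjusted p from 0.0539 to 0.0789, and was kept without Ctrl-Treg replicate 2 (-1.26, adjusted p = 0.000959). It was also lost after median-ratio scaling (-0.75, adjusted p = 0.0651) and with no filter on low values (adjusted p = 0.072), and over 14 alternatives adjusted p ran from 0.000959 to 0.0789 with the same direction in all 14.

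Epcam was 41.7, 40.0 and 45.0 FPKM in Ctrl-Treg against 25.7, 11.4 and 20.5 FPKM in Lenv-Treg. The Ctrl-Treg libraries were nearly alike, and Lenv-Treg replicate 2 was the lowest of the Lenv-Treg libraries. The mean fell from 42.2 ± 2.50 to 19.2 ± 7.22 FPKM (fold 2.20; difference -1.16, SE 0.25, limma adjusted p = 0.00978), and the call held in all 14 alternatives. Hair follicle and other epithelial cells also express Epcam, and their markers moved in the same libraries. Of 11 tested epithelial and hair follicle markers 9 fell and 2 rose, the median difference being -3.25, and 2 of the 9, Krt19 and Shh, passed the filter only through Ctrl-Treg. Lhx2, a transcription factor of hair follicle stem cells, fell from 16.8 ± 0.742 to 0.833 ± 0.136 FPKM, and Lgr5, a stem cell marker of the lower follicle, from 7.52 ± 0.111 to 1.49 ± 0.0632 FPKM. Krt14 and Krt5 of the basal epidermis rose by 2.54 and 0.91, and the summed level of all 14 markers was 3090 to 4223 FPKM in Ctrl-Treg against 6009 to 6149 FPKM in Lenv-Treg. None of the 14 was at 0 throughout a group. The part of follicle cells in the fall of Epcam was not tested.

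Other genes tied to Langerhans cells did not follow Cd207 as a list. Of 11, 1 rose, 2 fell and 8 did not pass (median -0.05), and with 1 library left out 0 to 2 fell, 0 being without Lenv-Treg replicate 2. The balance turned with the scaling, with 4 higher and 1 lower after median-ratio scaling, and 1 higher and 4 lower as TPM. Cd24a, a surface protein of Langerhans cells that keratinocytes and neutrophils also express, rose from 84.4 ± 9.97 to 205 ± 27.6 FPKM (1.27, SE 0.14, limma adjusted p = 0.000559). Itgb6 and Itgb8 encode integrin chains with which keratinocytes activate TGF-beta. Itgb6 fell by 0.58, which no longer passed when Lenv-Treg replicate 2 was dropped (adjusted p = 0.0534), and Itgb8 fell by 0.47 (adjusted p = 0.0426), a call lost in 5 of 6 fits without 1 library, with adjusted p up to 0.11. Il34, the keratinocyte ligand on which Langerhans cells depend, was 4.59 ± 0.427 and 5.28 ± 0.667 FPKM (0.17, SE 0.11, adjusted p = 0.274), and this difference turned negative after rescaling to TPM but passed after median-ratio scaling (adjusted p = 0.0495).

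The AP-1 family, to which BATF3 belongs, binds the letters TGANTCA, so the start regions of the marker genes were searched for them on both strands. RefSeq promoter windows of 300 bases (250 before to 50 after the start, build GRCm38.p6) were matched for 9 of the 10 genes, all but Clec10a. The letters were present in 2 of the 9, Cd207 and Zbtb46, and in 7.81% of 32851 promoter windows. Both windows are shown 5′ to 3′ on the gene's strand, with the match in capitals. Of these genes Cd207 fell and Zbtb46 did not pass the test. Binding of BATF3 or of any other AP-1 factor to these windows was not tested. Whether transcription in skin begins at the annotated starts was not tested either.
Cd207, chr6:83677808-83678107, minus strand: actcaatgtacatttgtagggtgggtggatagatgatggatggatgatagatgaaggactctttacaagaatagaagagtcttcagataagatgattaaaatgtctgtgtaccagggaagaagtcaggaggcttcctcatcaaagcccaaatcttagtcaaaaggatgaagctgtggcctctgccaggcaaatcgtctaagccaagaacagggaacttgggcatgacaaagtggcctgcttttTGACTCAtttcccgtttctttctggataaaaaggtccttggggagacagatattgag
Zbtb46, chr2:181424339-181424638, minus strand: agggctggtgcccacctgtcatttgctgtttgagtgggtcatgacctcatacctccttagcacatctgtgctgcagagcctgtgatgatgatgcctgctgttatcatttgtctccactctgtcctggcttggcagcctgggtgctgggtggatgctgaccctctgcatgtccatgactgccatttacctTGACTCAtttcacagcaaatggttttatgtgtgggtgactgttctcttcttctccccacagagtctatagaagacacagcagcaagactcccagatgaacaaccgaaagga
The match starts at position -7 from the annotated start site in Cd207 and at -61 in Zbtb46. A PU.1 motif (GAGGAAGT) and an interferon response motif had 0 matches in the 9 windows, against 3.2% and 3.44% of all windows, and an ETS-IRF composite motif (2.72% of all windows) matched only in Cd209a. None of these motifs overlapped another in the 9 windows.

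The cDC1 markers were lower in every Lenv-Treg library. Xcr1, the receptor for the chemokine XCL1, was 0.921, 0.516 and 1.08 FPKM in Ctrl-Treg, from 165, 90 and 187 reads. In Lenv-Treg it was 0.0449, 0.00558 and 0.0340 FPKM, from 8, 1 and 6 reads, so its signal there was close to the limit of detection. Mean FPKM was 0.841 ± 0.293 and 0.0282 ± 0.0203 (n = 3 each), a fold of 29.8 that ran from 21.3 to 42.5 when 1 library was left out. The difference was -0.83 (SE 0.13, limma adjusted p = 0.0021) with a pseudocount of 1, -2.84 with a pseudocount of 0.1 and -5.04 in limma's voom on the recovered reads. Xcr1 passed the filter only through its 3 Ctrl-Treg libraries. A gene that passes in this way has to differ, in that its groups cannot overlap, whether or not it passes the test.

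Clec9a, the receptor for actin exposed by dead cells, was 0.520, 0.388 and 0.424 FPKM in Ctrl-Treg against 0.144, 0.128 and 0.0996 FPKM in Lenv-Treg. These values came from 69, 50 and 54 reads and from 19, 17 and 13 reads, and the groups did not overlap. The fold was 3.58, and an exact permutation test gave p = 0.1, the smallest that 3 against 3 libraries allow. In the limma fit with no filter on low values Clec9a passed (-0.36, SE 0.04, adjusted p = 0.00401), where 16% of 25667 genes were called lower. Batf3, the transcription factor that cDC1 need for their development and that activated T cells also express, was 8.27, 7.21 and 9.29 FPKM in Ctrl-Treg against 5.73, 3.21 and 5.04 FPKM in Lenv-Treg. It fell from 8.26 ± 1.04 to 4.66 ± 1.30 FPKM (fold 1.77; -0.73, SE 0.18, limma adjusted p = 0.0164), and its adjusted p stayed between 0.00379 and 0.0496 over 14 alternatives. The level of Batf3 was thus 18.8 ± 3.03 times that of Clec9a within a library in Ctrl-Treg and 38.4 ± 12.8 times in Lenv-Treg, with no overlap.

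The other cDC1 genes were divided. Of 9 tested, 3 fell, 1 rose and 5 did not pass (median -0.21). The count of lower genes was 1 to 4 with 1 library left out (1 without Lenv-Treg replicate 2), 1 after median-ratio scaling and 5 as TPM. Xcl1, the ligand of XCR1 made by T cells and NK cells, was 2.64, 2.37 and 2.89 FPKM in Ctrl-Treg against 1.01, 0.480 and 0.731 FPKM in Lenv-Treg. Ligand and receptor were therefore both lower in each Lenv-Treg library, Xcl1 by 1.07 (SE 0.13, limma adjusted p = 0.000818). Cadm1, an adhesion molecule of cDC1, fell from 1.30 ± 0.0180 to 0.816 ± 0.109 FPKM (-0.34, adjusted p = 0.0168), a call that ended after median-ratio scaling (adjusted p = 0.0747) and without Lenv-Treg replicate 2 (adjusted p = 0.0534). Id2, a transcriptional inhibitor that many cell types express, fell by 0.51 (adjusted p = 0.0268), a call lost in 4 of 6 fits without 1 library, where the highest adjusted p was 0.0947, and also under median-ratio scaling (adjusted p = 0.162). Irf8, the factor that acts with BATF3 in cDC1 and also in monocytes, was 12.4 ± 2.20 and 14.3 ± 1.18 FPKM (0.21, SE 0.14, adjusted p = 0.254), and its difference turned negative as TPM. Naaa, a lysosomal amidase gene, did not pass (-0.39, adjusted p = 0.0851), although it did without Ctrl-Treg replicate 2 (adjusted p = 0.024) and as TPM.

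**Figure D2:**
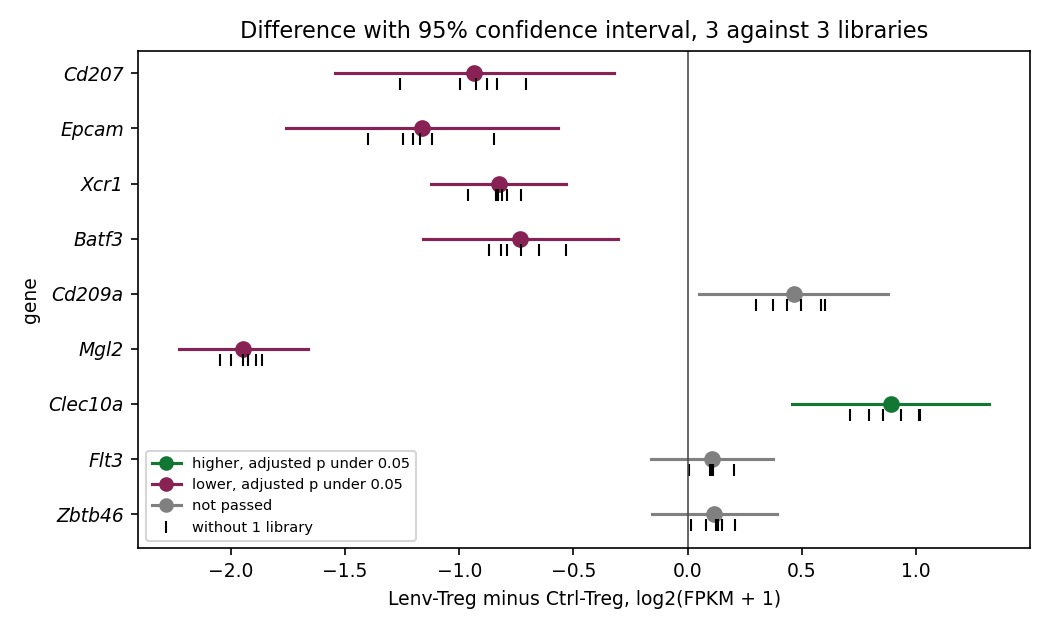
Differences of the 9 tested marker genes (Ctrl-Treg subtracted from Lenv-Treg, in log2(FPKM + 1), horizontal axis) with 95% confidence intervals from limma, 3 against 3 libraries; ticks show the value when 1 library is left out. Mgl2 has the largest fall on this scale (-1.95), Clec10a lies at 0.89, and the intervals of Flt3 and Zbtb46 include 0.

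The lectin genes of cDC2 and macrophages moved apart from each other. Mgl2 and Clec10a encode CD301b and CD301a, a pair of galactose-type lectins that arose by gene duplication. Mgl2 was 22.7, 19.0 and 24.8 FPKM in Ctrl-Treg against 4.53, 5.47 and 4.99 FPKM in Lenv-Treg. It fell 4.44-fold, from 22.2 ± 2.93 to 5.0 ± 0.467 FPKM (-1.95, SE 0.12, limma adjusted p = 6.4e-05), and libraries within each group were close together. Clec10a was 62.9, 70.5 and 45.7 FPKM in Ctrl-Treg against 92.3, 114.5 and 124.7 FPKM in Lenv-Treg. It rose 1.85-fold, from 59.7 ± 12.7 to 110.5 ± 16.6 FPKM (0.89, SE 0.19, limma adjusted p = 0.00802), again with no overlap. Both calls held in all 14 alternatives, with differences between -2.31 and -1.75 for Mgl2 and between 0.61 and 1.10 for Clec10a. The ratio of Mgl2 to Clec10a within a library was 0.360, 0.270 and 0.543 in Ctrl-Treg against 0.0491, 0.0477 and 0.0400 in Lenv-Treg, 8.25-fold lower by the mean of the log ratios.

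Since the counting of reads shared by similar genes is not described in the sources used here, the likeness of the pair was measured on GENCODE M21 transcripts. Their coding sequences, 1146 bases for Mgl2 and 927 for Clec10a, had 825 identical bases among 913 aligned (90.4%), with a longest identical run of 183 bases. Of all stretches of 100 bases in the Mgl2 coding sequence 8.69% also occurred in Clec10a, and 11% the other way; for stretches of 50 bases the shares were 22.1% and 27.6%. Among stretches of 120 bases that aligned without a gap, the one with the most differences held 8, and it is shown to give letters by which the genes differ; capitals mark those bases.
Mgl2, coding bases 430 to 549: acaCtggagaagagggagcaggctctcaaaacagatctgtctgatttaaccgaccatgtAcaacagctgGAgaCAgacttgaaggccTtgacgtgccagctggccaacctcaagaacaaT
Clec10a, coding bases 382 to 501: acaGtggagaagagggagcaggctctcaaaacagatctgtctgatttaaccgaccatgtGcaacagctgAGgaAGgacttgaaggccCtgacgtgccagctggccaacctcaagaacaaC
Reads from the shared stretches could have been given to either gene, so each value is uncertain to that extent. The counts assigned went from 5190 to 1187 reads for Mgl2 and from 10603 to 19869 reads for Clec10a over 3 libraries each. They were recovered from the same FPKM values and so carry the same uncertainty. The part of shared reads in the opposite directions of the 2 genes was not tested.

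Cd209a, a mouse gene of the DC-SIGN family that marks cDC2 and monocyte-derived dendritic cells, was 13.6, 8.57 and 11.6 FPKM in Ctrl-Treg against 13.1, 17.9 and 16.3 FPKM in Lenv-Treg. The groups overlapped, since Ctrl-Treg replicate 1 was above Lenv-Treg replicate 1. Means were 11.2 ± 2.51 and 15.8 ± 2.45 FPKM, and the difference of 0.46 (SE 0.18) did not pass (limma adjusted p = 0.0702), with an unadjusted 95% interval of 0.05 to 0.88. It passed without Ctrl-Treg replicate 1 (0.60, adjusted p = 0.0382), without Lenv-Treg replicate 1 (0.58, adjusted p = 0.0486) and after median-ratio scaling (0.66, adjusted p = 0.034), and over 14 alternatives adjusted p ran from 0.034 to 0.324. The ratio of Mgl2 to Cd209a was 1.67 to 2.22 in Ctrl-Treg against 0.305 to 0.346 in Lenv-Treg, so that the order of these cDC2 genes was exchanged between the groups.

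Of 9 other cDC2 genes tested, 4 rose, 0 fell and 5 did not pass (median 0.39; 0.60 after median-ratio scaling and 0.11 as TPM). With 1 library left out 2 to 5 rose, the count of 2 being without Lenv-Treg replicate 2, and as TPM 1 rose and 2 fell. Itgam, the CD11b integrin chain of cDC2, macrophages and neutrophils, rose from 34.2 ± 11.0 to 63.8 ± 10.6 FPKM (0.91, adjusted p = 0.015), which did not pass with Lenv-Treg replicate 2 dropped (adjusted p = 0.0566) and as TPM (adjusted p = 0.0529). Klf4, a factor of some cDC2 and of differentiating epidermis, rose by 0.54 (adjusted p = 0.00596), which was 0.26 (adjusted p = 0.12) as TPM. Clec4a4, the inhibitory receptor DCIR2, rose from 0.215 ± 0.123 to 0.934 ± 0.252 FPKM (0.67, limma adjusted p = 0.00562), but all 3 Ctrl-Treg libraries were below the filter, so that this gene, 1 of the 4, had to differ. Irf4, the other factor of cDC2, was 4.89 ± 1.28 and 3.49 ± 0.929 FPKM (adjusted p = 0.168), and Clec4a2 was 41.1 ± 11.0 and 58.8 ± 4.80 FPKM (adjusted p = 0.0613). Clec4a2 passed without Ctrl-Treg replicate 1 (adjusted p = 0.0304) and after median-ratio scaling.

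Clec10a is also a gene of macrophages, and the macrophage and monocyte markers were divided. Of 16 tested, 7 rose, 2 fell and 7 did not pass (median 0.41), with 5 to 9 higher when 1 library was left out, and their summed level was 2486 to 3149 FPKM in Ctrl-Treg against 3796 to 4298 FPKM in Lenv-Treg. None was at 0 throughout a group. Lyz2 had the highest level on the list, at 1060 to 1274 FPKM in Ctrl-Treg and 1851 to 2220 FPKM in Lenv-Treg. It was thus the largest single part of the sum. Neither marker that fell is among those named next. Lyve1, a hyaluronan receptor of resident macrophages and lymphatic vessels, was 14.0, 12.3 and 11.1 FPKM in Ctrl-Treg against 57.0, 64.8 and 51.2 FPKM in Lenv-Treg. Ccr2, the chemokine receptor of inflammatory monocytes, rose from 15.5 ± 1.03 to 38.6 ± 5.79 FPKM, and Lyz2, encoding lysozyme, by 0.75, which did not pass once Lenv-Treg replicate 2 or 3 was dropped (adjusted p = 0.0526 and 0.058). C1qb, a complement gene of macrophages, did not pass (0.30, adjusted p = 0.147), but did under median-ratio scaling (adjusted p = 0.0446). Among 16 other C-type lectin genes tested 11 rose and 1 fell (median 0.72), and 8 to 11 rose without 1 library. Mrc1, the mannose receptor of macrophages, rose from 52.1 ± 10.1 to 129 ± 6.86 FPKM, and Clec2d, a ligand of an NK receptor, from 66.5 ± 2.88 to 106 ± 13.6 FPKM. Clec4d and Clec4e, receptors for microbial glycolipids on neutrophils and macrophages, rose by 5.20 and 4.02 (limma adjusted p = 2.73e-05 and 4.05e-05). Clec4e passed the filter only through its Lenv-Treg libraries, and 3 of the 12 calls on this list were of genes that passed through 1 group. Of the 13 lectin genes tested through both groups 9 rose and 0 fell, so the gene that fell was among those 3. The 7 tested neutrophil markers all rose, and the summed level of the 8 on that list was 48.5 to 191 FPKM in Ctrl-Treg against 38084 to 53777 FPKM in Lenv-Treg. S100a8 and S100a9, the calprotectin subunits, made up most of that sum, rising by 9.09 and 8.92. Which cells of the skin held their RNA was not tested, so the sum is not a measure of neutrophils alone. Retnlg and Mmp8 rose by 6.43 and 3.48. Mmp8 was 1 of 2 neutrophil markers that passed the filter only through Lenv-Treg and had to differ. The part of macrophages and neutrophils in the lectin differences was not tested.

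The genes shared by all classical dendritic cells did not pass. Flt3, the growth factor receptor of dendritic cell precursors, was 1.07, 0.570 and 0.805 FPKM in Ctrl-Treg against 0.920, 0.941 and 0.957 FPKM in Lenv-Treg. The Lenv-Treg libraries were nearly alike and lay within the Ctrl-Treg range. The difference was 0.11 (SE 0.11, limma adjusted p = 0.485) with a 95% interval of -0.16 to 0.37, and it was -0.03 as TPM. Zbtb46, the transcription factor of the classical lineage, was 0.768, 0.960 and 0.501 FPKM in Ctrl-Treg against 0.983, 0.798 and 0.863 FPKM in Lenv-Treg. Its difference was 0.12 (SE 0.12, adjusted p = 0.442) with a 95% interval of -0.15 to 0.39, and -0.01 as TPM. The intervals leave room for a change of either sign. Both genes rested on moderate counts, 601 and 701 reads over the groups for Flt3 and 725 and 871 for Zbtb46. Endothelial cells also express Zbtb46, and of 12 endothelial markers 3 rose, 0 fell and 9 did not pass (median 0.37), 0 to 2 rising without 1 library, 0 as TPM and 5 after median-ratio scaling. Emcn and Sox17, genes of vascular endothelium, rose by 0.58 and 0.46 (adjusted p = 0.021 and 0.0237), but neither passed without Lenv-Treg replicate 1 (0.0589 and 0.067) or replicate 3 (0.0624 and 0.0659), nor Sox17 without Ctrl-Treg replicate 1 or 3 (0.061 and 0.0694), whereas Pecam1 and Cldn5 did not pass (adjusted p = 0.0756 and 0.173), although Pecam1 did under median-ratio scaling (adjusted p = 0.0335). The summed endothelial level was 87.4 to 148 FPKM in Ctrl-Treg against 152 to 196 FPKM in Lenv-Treg, with no marker at 0 throughout a group, and its part in the level of Zbtb46 was not tested.

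By level, Clec10a and Epcam ranked first and second in both groups, and the order below them changed. In Ctrl-Treg they were followed by Mgl2, then Cd209a, Cd207 and Batf3, whose neighbours were not separated (8.57 to 13.6, 5.49 to 12.9 and 7.21 to 9.29 FPKM), and then Xcr1, Flt3, Zbtb46 and Clec9a, whose neighbours overlapped as well. In Lenv-Treg the ranges of Epcam and Cd209a overlapped, Mgl2, Batf3 and Cd207 lay between 3.21 and 5.73 FPKM without separation, and Flt3 and Zbtb46 overlapped at 0.798 to 0.983 FPKM. Clec9a and then Xcr1 were lowest, each separated from the gene above. Xcr1 thus went from rank 7 to rank 10. The ratio of Xcr1 to Clec9a was 1.33 to 2.56 in Ctrl-Treg against 0.0435 to 0.341 in Lenv-Treg, while that of Epcam to Cd207 was 3.48 to 7.29 and 2.90 to 6.02, with overlap. The pairs were chosen after their values were seen and carry no test. In Lenv-Treg the ratio of Xcr1 to Clec9a rests on only 8, 1 and 6 reads of Xcr1 and 19, 17 and 13 reads of Clec9a.

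**Figure D3:**
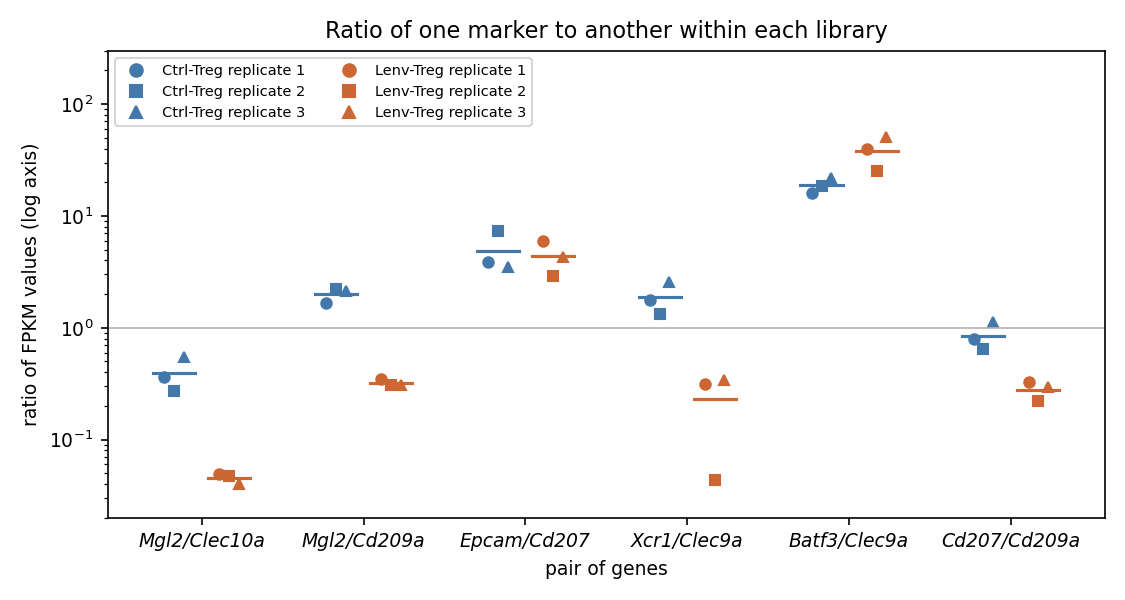
Ratio of the FPKM of one marker gene to that of another (log axis) in each library, with bars for the mean of the 3 libraries of a group. The ratios of Mgl2 to Clec10a, Mgl2 to Cd209a, Xcr1 to Clec9a and Cd207 to Cd209a are lower in all 3 Lenv-Treg libraries, that of Batf3 to Clec9a is higher, and that of Epcam to Cd207 overlaps. In Lenv-Treg the ratio of Xcr1 to Clec9a rests on 8, 1 and 6 reads of Xcr1.

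Within the Ctrl-Treg group the libraries differed in these genes. Ctrl-Treg replicate 2 was the lowest of its group for 8 of the 10 marker genes, all but Zbtb46 and Clec10a, for which it was the highest. Over all tested genes it was the lowest of its group for 29.3%. Lenv-Treg replicate 2 was the lowest of its group for 5 of the 10, with 33% over all tested genes. The ratio of Cd207 to Cd209a was 0.789, 0.641 and 1.12 in Ctrl-Treg against 0.326, 0.220 and 0.296 in Lenv-Treg. This pair was also chosen after its values were seen, and whether a shared shift lowered these genes in Ctrl-Treg replicate 2 was not tested.

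Among genes for dendritic cell growth factors and their receptors, the ligand of FLT3 fell. Flt3l was 6.18, 4.51 and 6.07 FPKM in Ctrl-Treg against 3.49, 3.36 and 2.96 FPKM in Lenv-Treg (-0.62, SE 0.13, limma adjusted p = 0.0079), with no overlap. Its receptor gene Flt3 did not pass, as given above. Of the 10 tested genes of this list 4 fell, 2 rose and 4 did not pass (median -0.33). There were 4 higher and 4 lower after median-ratio scaling, 1 higher and 6 lower as TPM, and 4 higher without Ctrl-Treg replicate 1. Csf2rb, the common beta chain of the GM-CSF, IL-3 and IL-5 receptors, rose from 9.11 ± 2.07 to 19.1 ± 2.88 FPKM (1.00, adjusted p = 0.00354), and Kit, the receptor of stem cell factor on mast cells and melanocytes, fell from 3.83 ± 0.241 to 2.26 ± 0.124 FPKM. Csf1r, the receptor for IL-34 and CSF-1, was 66.7 ± 17.7 and 91.9 ± 9.18 FPKM (adjusted p = 0.0882), and Tgfb1 was 31.2 ± 6.03 and 40.3 ± 2.37 FPKM (adjusted p = 0.0687). Both passed without Ctrl-Treg replicate 1 (adjusted p = 0.0464 and 0.0157) and after median-ratio scaling.

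Maturation genes gave few calls. Of 14 genes for the maturation and migration of dendritic cells 2 rose, 2 fell and 10 did not pass (median 0.23). After median-ratio scaling 4 rose and 0 fell, and with 1 library left out 2 to 3 rose and 1 to 3 fell, 1 in each fit but the one without Ctrl-Treg replicate 2. Cd80, a costimulatory ligand of T cells, rose from 0.612 ± 0.131 to 2.18 ± 0.361 FPKM (0.98, limma adjusted p = 0.00078), and Il12b, the p40 subunit of IL-12 and IL-23, from 0.173 ± 0.0389 to 0.566 ± 0.0379 FPKM (0.42, adjusted p = 0.00529). Il12b passed the filter only through its Lenv-Treg libraries. Ccr7, the receptor that guides dendritic cells to lymph nodes, was 0.937 ± 0.313 and 1.99 ± 0.964 FPKM (adjusted p = 0.106), and passed without Lenv-Treg replicate 1 (adjusted p = 0.00842). Fscn1, encoding fascin, did not pass (0.24, adjusted p = 0.313; negative as TPM), nor did Ccl21a, a CCR7 ligand of lymphatic vessels (-0.34, adjusted p = 0.43), which passed without Ctrl-Treg replicate 2 (adjusted p = 0.00466).

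Antigen presentation genes were mostly lower. Of 12 tested 7 fell, 1 rose and 4 did not pass (median -0.54), but the count of lower genes dropped to 2 without Ctrl-Treg replicate 1, Lenv-Treg replicate 1 or Lenv-Treg replicate 2, to 4 without Ctrl-Treg replicate 3 and to 2 after median-ratio scaling. Cd74, the invariant chain of MHC class II, fell from 945 ± 100 to 546 ± 141 FPKM (-0.82, adjusted p = 0.0195), which did not pass when any of the former 3 libraries was dropped (at most 0.0771) or under median-ratio scaling (adjusted p = 0.0689). H2-DMb1, a chain of the peptide exchange factor H2-DM, fell by 0.70 (adjusted p = 0.00806). Ctss, the protease that cleaves the invariant chain, rose from 186 ± 39.4 to 309 ± 10.1 FPKM (0.75, adjusted p = 0.00991). Itgax, the CD11c integrin chain of dendritic cells and some macrophages, was 1.91 ± 0.528 and 1.74 ± 0.467 FPKM (-0.09, adjusted p = 0.711), and this difference turned positive after median-ratio scaling and without Ctrl-Treg replicate 1 or Lenv-Treg replicate 2. Cst3, encoding cystatin C, did not pass (-0.32, adjusted p = 0.15) but did as TPM.

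Of 6 tested genes on the plasmacytoid dendritic cell list 3 fell, 1 rose and 2 did not pass (median -0.40). After median-ratio scaling 2 rose and 2 fell, and with 1 library left out 1 to 2 rose and 2 to 3 fell. Ccr9, 1 of the 6, passed the filter through 1 group only and was not called. Bst2, which interferons induce in many cells, fell from 91.1 ± 8.93 to 34.6 ± 5.21 FPKM, and Bcl11a, a transcription factor also of hair follicle and B cells, from 3.07 ± 0.0763 to 1.01 ± 0.227 FPKM. Ly6d, which keratinocytes also express, rose by 0.81, and Cox6a2, a muscle gene as well, did not pass (adjusted p = 0.466), with a difference that turned positive without Ctrl-Treg replicate 2. Of 8 tested lymphocyte markers 0 rose, 2 fell and 6 did not pass (median -0.25; 1 fell without Lenv-Treg replicate 2), and their summed level was 139 to 182 FPKM in Ctrl-Treg against 88.4 to 99.6 FPKM in Lenv-Treg. Thy1, carried by T cells, fibroblasts and hair follicle cells, made up most of that sum, falling from 131 ± 20.4 to 63.0 ± 6.92 FPKM. The fall of the sum was therefore mostly that of Thy1. Nkg7, a granule gene of cytotoxic cells, fell by 0.73, which did not pass with Lenv-Treg replicate 2 dropped (adjusted p = 0.0559). Ptprc, which all leukocytes express, was 15.6 ± 3.19 and 20.0 ± 1.63 FPKM (adjusted p = 0.0884), and passed without Ctrl-Treg replicate 1 (adjusted p = 0.0228) and after median-ratio scaling. Cd3g was 8.92 ± 1.60 and 6.06 ± 1.63 FPKM (adjusted p = 0.0677), and passed without Ctrl-Treg replicate 2 or Lenv-Treg replicate 3 and as TPM.

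**Figure D4:**
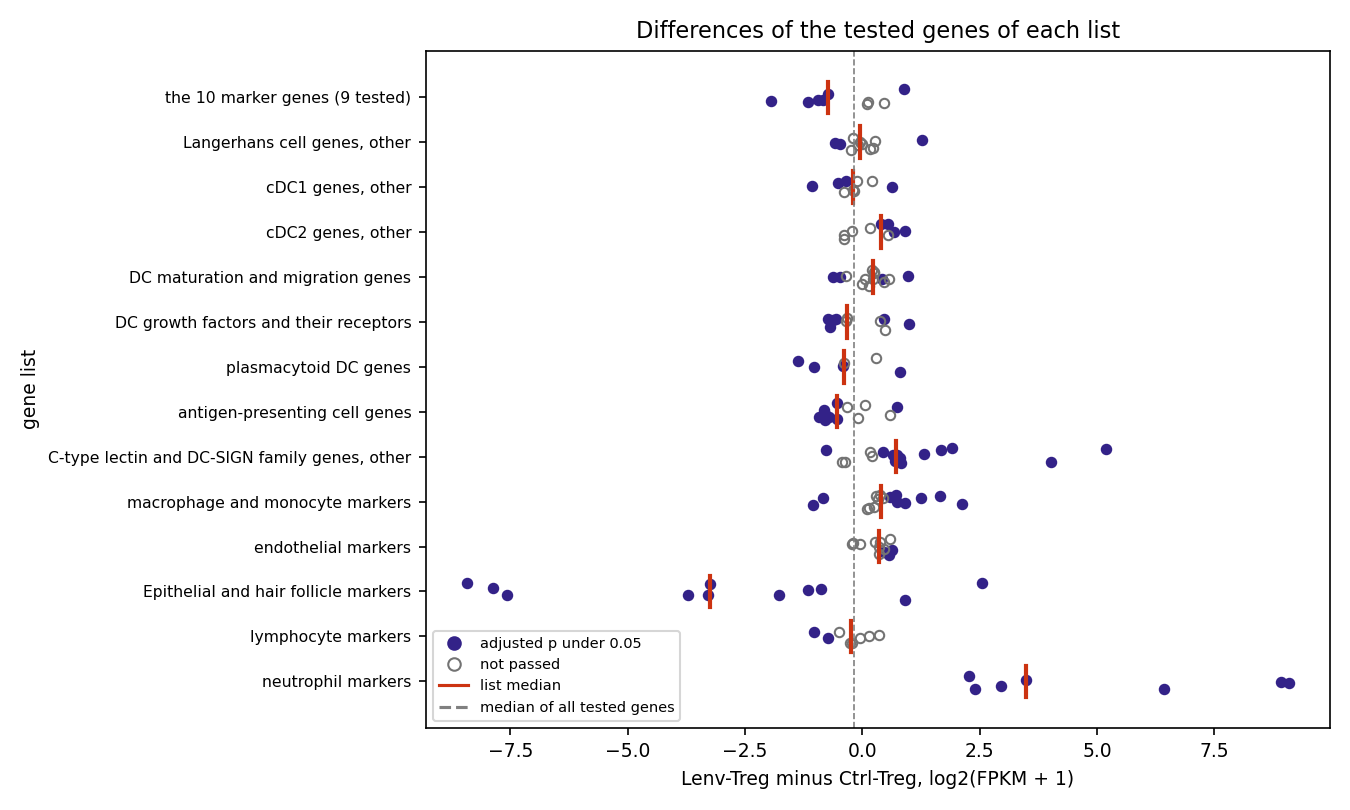
Differences (Ctrl-Treg subtracted from Lenv-Treg, log2(FPKM + 1), horizontal axis) of the tested genes of each list, 1 point per gene, with filled points for an adjusted p under 0.05 and a bar at the list's median. The 9 tested marker genes have a median of -0.73, with Xcr1, which had to differ, among them. Without Xcr1 the middle lies between Batf3 (-0.73) and Flt3 (0.11). The medians are -0.05 for the other Langerhans genes, -0.21 for the other cDC1 genes and 0.39 for the other cDC2 genes. The dashed line is the median of all tested genes (-0.17).

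The genes whose pattern over the 6 libraries was most like that of Cd207 were the predicted genes Gm54119 and Gm31300 and Snapc2, a subunit of the complex that starts snRNA transcription, with Pearson correlations of log2(FPKM + 1) of 0.999, 0.997 and 0.996. For Cd209a they were Hcls1, an actin regulator of blood cells, Calr, encoding calreticulin, and Slfn2, a leukocyte gene, at 0.995, 0.993 and 0.990. These are descriptions over 6 libraries that share the group split, and 63 of the 13945 tested genes exceeded 0.95 for Cd207 and 56 for Cd209a. Hcls1 was 31.3 ± 7.69 and 44.3 ± 8.47 FPKM (adjusted p = 0.0877), so that like Cd209a it did not pass.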

How the data were processed

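RNA-seq of lesional skin was measured in 6 libraries, 3 labelled Ctrl-Treg and 3 labelled Lenv-Treg, grouped by the treatment label. The values were FPKM as deposited by the authors, in 1 table; the submitters' processing notes name GRCm39 as genome, and the aligner, counter and annotation were not given in the sources used here. All 6 columns matched a sample title. RNA was isolated with TRIzol per the labels' protocols.

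Low FPKM values were whole multiples of a step per gene, from which depth (38704536 to 40248462 reads) and, for 13934 of 13945 tested genes, whole reads were recovered within 0.005 reads plus 1.5e-07 per read. Genes with FPKM of at least 0.5 in 3 libraries were fitted with limma 3.58.1 (R 4.3.3; trended variance) on log2(FPKM + 1), two-sided, with Benjamini-Hochberg adjustment over all tested genes. The procedure was tested on simulated data. Clec9a, below the filter, had a two-sided exact permutation test. Coding sequences were aligned globally with Biopython 1.88.

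Named were all 10 marker genes and, of each of 13 related lists, up to 4 tested genes (the 2 with the highest mean level, then the 2 of lowest p among the rest) besides Flt3l, Il34, Csf1r, Irf8, Irf4, Xcl1, Itgax, Ccr7 and Tgfb1, and the 3 genes most correlated with Cd207 and with Cd209a. The result of 1 gene that this rule names is not reported here. The marker genes and lists were chosen with earlier results of these data known. Of 159 genes on the related lists 157 were in the table. Alternatives covered the pseudocount, the filter, scaling, voom on the recovered reads, the replicate number as a block, and leaving out each library.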

Additional observations from a re-analysis of the deposited data

How the results depend on the processing

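With 14 alternatives, the differences of Epcam, Mgl2, Batf3 and Clec10a kept their direction and their side of the threshold. Xcr1 kept both wherever it could be tested, which was not the case at an FPKM of at least 1. It had passed the filter only through Ctrl-Treg and so had to differ. Of 123 values for single marker genes, 111 kept both, 7 lost the call (all Cd207), 3 gained it (all Cd209a) and 2 changed sign: Flt3 (-0.0335) and Zbtb46 (-0.0122) after rescaling to TPM. Marker genes higher numbered 2 after median-ratio scaling, and 1 to 2 with 1 library left out; those lower numbered 4 to 5 with 1 library left out. Over all tested genes, 2417 were higher and 2417 lower after median-ratio scaling, and 947 and 7970 as TPM; with 1 library left out 1152 to 1447 were higher and 2780 to 3900 lower, the lowest count being without Lenv-Treg replicate 2. On the related lists together 23 genes were lower after median-ratio scaling and 22 to 38 without 1 library, the lowest again without Lenv-Treg replicate 2. Why these counts moved was not tested.

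With the replicate number as a block, 1637 genes were higher and 4270 lower, 1 marker gene was higher and 5 lower, and 6 endothelial markers were higher, Pecam1 among them (adjusted p = 0.0257); the labels do not say that the numbers pair samples, and same-numbered libraries had correlations of 0.196, -0.0109 and 0.328 between their deviations from the group means. Depth limits Xcr1 and Clec9a, with 15 and 49 reads over the 3 Lenv-Treg libraries.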
